A study of Homo sapiens with 24 samples.

Results

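The genes described here are those of the G1 switch of the cell cycle in LNCaP, a human prostate cancer cell line that responds to androgen. They are 10 genes chosen by symbol: the CIP/KIP inhibitors CDKN1A, CDKN1B and CDKN1C, the INK4 inhibitors CDKN2C and CDKN2D, the D-type cyclins CCND1, CCND2 and CCND3, and the kinases CDK4 and CDK6. All 10 were found among the 22227 genes of the ligand tables and the 23028 genes of the siRNA tables. The ligand experiment compared vehicle, 10 µM enzalutamide (an antiandrogen, MDV in the labels) and 10 nM DHT (dihydrotestosterone, an androgen), each ligand for 4 h or 24 h, with n = 2 per condition. The siRNA experiment crossed non-targeting siRNA (siControl) or siRNA against the transcription factor GATA2 (siGATA2) with 24 h of vehicle or of 25 µM enzalutamide, begun 72 h after transfection, with n = 3 per condition. All cells had been kept for 3 days in phenol red-free medium with charcoal-stripped serum, which removes most steroid hormones. The vehicle cells of the ligand experiment served both times, since no time is given for them. A difference between the times of a ligand therefore cannot be told apart from time in culture.

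D-type cyclins activate CDK4 and CDK6, which phosphorylate the RB protein and so release E2F transcription factors for entry into S phase. INK4 proteins bind CDK4 and CDK6 and block their pairing with cyclin D, whereas CIP/KIP proteins bind assembled cyclin-CDK complexes and inhibit CDK2 in particular. In prostate cancer cells androgen signalling is known to act on this switch at several points, among them the level of p27, the CDKN1B protein.

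The luminal keratins KRT8 (320 to 462 CPM and 102 to 198 RPKM) and KRT18 (282 to 485 CPM and 109 to 174 RPKM) were expressed in every library. CPM are counts scaled to a common library size, and RPKM are read counts scaled to library size and gene length, so that only RPKM compare genes with each other. Of 12 markers of other cell types, the basal KRT5, KRT14 and TP63, the leukocyte genes PTPRC and CD3E, the endothelial PECAM1 and the stromal COL1A2 and DCN stayed at or below 0.408 CPM and 0.113 RPKM. The remaining markers were higher. The stromal COL1A1 had 14.4 to 28.5 CPM and 9.62 to 16.3 RPKM, and ACTA2 had 1.46 to 2.42 CPM and 0.609 to 2.11 RPKM. The endothelial VWF had 8.45 to 21.4 CPM and 0.362 to 1.25 RPKM, and the leukocyte gene CD68 had 1.18 to 2.84 CPM and 3.54 to 12.2 RPKM. The summed level of these 12 markers was 37.1 to 45.3 CPM in the ligand libraries. In the siRNA libraries it was 15.6 to 17.1 RPKM in siControl vehicle, 19.5 to 20.0 RPKM in siControl enzalutamide, 25.3 to 30.3 RPKM in siGATA2 vehicle and 26.6 to 28.7 RPKM in siGATA2 enzalutamide, mostly from COL1A1 and CD68. Its part in the results for siGATA2 and for enzalutamide was not tested. GATA2, the targeted gene, was at 82.3 ± 4.72 RPKM (SD, n = 3) in siControl vehicle and 51.4 ± 4.22 in siGATA2 vehicle, so that the knockdown was partial. Under enzalutamide it was at 129.3 ± 1.97 RPKM in siControl and 62.1 ± 2.37 RPKM in siGATA2 cells. Enzalutamide thus raised GATA2 itself in siControl cells (0.65, adjusted p = 1.17e-05, limma), with an interaction of -0.38 (adjusted p = 0.00823). The ligand experiment went the other way. There GATA2 fell with enzalutamide at 4 h (-0.39, adjusted p = 0.000198, edgeR) and at 24 h (-0.185, adjusted p = 0.00892). The cause of this difference between the experiments was not tested. Ligand libraries held 38894876 to 59985287 estimated counts, and siRNA libraries rested on about 58800000 to 76800000 mapped reads.

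Promoters are shown for 3 members, CDKN1A and CDKN1B because they moved together in the ligand experiment and CDK4 because its window was the only one to hold a GATA letter string. The sequences are the 250 bases before the annotated start in RefSeq (GRCh38.p14), written 5′ to 3′ on the strand of the gene. CDKN1A lies at chr6:36678464-36678713 on the plus strand, CDKN1B at chr12:12717118-12717367 on the plus strand and CDK4 at chr12:57752311-57752560 on the minus strand. Capitals mark every match on either strand to a searched string. The strings for GATA factors were AGATAA and its variant TGATAA, together with the other pair AGATAG and its variant TGATAG. The string searched for the GC box was GGGCGG, and the CCAAT box was searched by its name. The string for the E-box was CACGTG as a whole.
CDKN1A: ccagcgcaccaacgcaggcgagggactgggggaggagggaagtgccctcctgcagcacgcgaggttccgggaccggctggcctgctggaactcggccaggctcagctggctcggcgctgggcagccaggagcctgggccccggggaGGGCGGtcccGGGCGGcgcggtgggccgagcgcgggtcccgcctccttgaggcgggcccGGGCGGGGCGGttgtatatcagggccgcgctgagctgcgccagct
CDKN1B: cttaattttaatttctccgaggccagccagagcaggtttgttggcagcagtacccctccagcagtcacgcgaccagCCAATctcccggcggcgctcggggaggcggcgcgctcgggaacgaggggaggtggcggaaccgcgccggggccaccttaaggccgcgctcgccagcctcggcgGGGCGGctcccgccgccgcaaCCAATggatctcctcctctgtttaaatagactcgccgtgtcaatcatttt
CDK4: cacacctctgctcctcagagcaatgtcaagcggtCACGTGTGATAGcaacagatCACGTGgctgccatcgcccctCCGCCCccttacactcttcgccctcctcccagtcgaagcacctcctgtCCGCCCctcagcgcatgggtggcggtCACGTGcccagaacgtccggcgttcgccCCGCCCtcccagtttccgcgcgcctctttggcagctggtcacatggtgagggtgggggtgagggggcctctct

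The table of promoters matched 7 of the 10 members with 12 windows. CDKN1C, CCND1 and CCND2 had no window. GC boxes occurred in 9 of the 12 member windows and in 42.6% of all 35116 windows. CDKN1A held 4 of them, starting 104, 94, 45 and 40 bases before the start, the last of these overlapping by 1 base. CDKN1B held 1 GC box at 71 bases and CCAAT boxes at 174 and 50 bases. A GATA string was found in 1 of the 12 windows and in 22.3% of all windows. It was the TGATAG of CDK4, 210 bases before the start, directly beside an E-box at 216 bases, and E-boxes (6.34% of all windows) followed at 196 and 101 bases. A match describes these letters alone.

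Per unit of length, the members covered a wide range in siControl vehicle cells. CDKN1A (81.7 ± 4.75 RPKM), CDK4 (83.9 ± 2.31 RPKM) and CCND1 (79.7 ± 2.05 RPKM) had the highest levels, and their ranges overlapped. CDKN1B followed at 36.4 ± 0.816 RPKM and CCND3 at 19.6 ± 1.01 RPKM. CDKN2D (8.89 ± 0.408 RPKM) and CDKN2C (8.15 ± 0.106 RPKM) were lower, and CDKN1C was at 5.71 ± 0.471 RPKM. CDK6, the alternative kinase, was at 1.64 ± 0.0465 RPKM. CCND2 was barely detected, at 0.082 ± 0.00945 RPKM. It had 0 to 5 estimated counts in any ligand library, failed the filter on low counts and was not tested there, which left 9 members tested in the ligand experiment and 10 in the siRNA experiment.

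**Figure D1:**
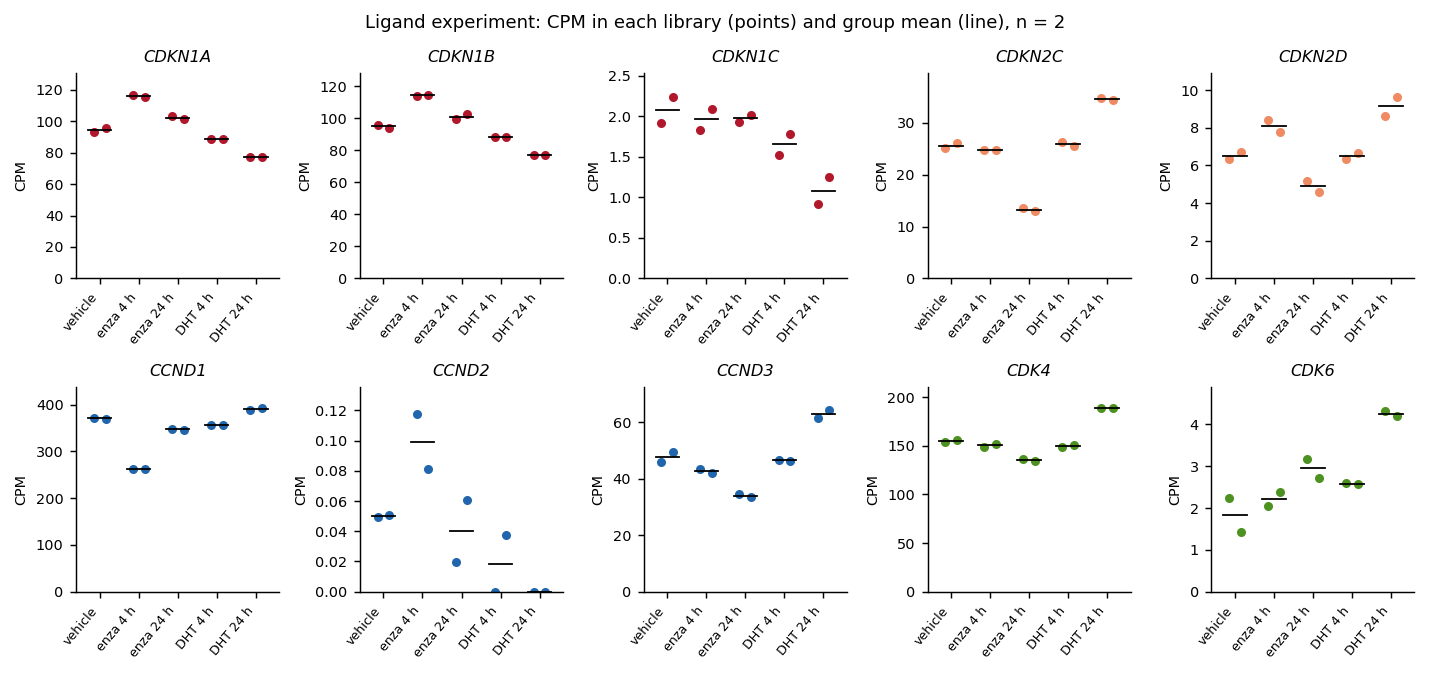
CPM (vertical axes starting at 0) of the 10 genes in each ligand library (points, n = 2 per condition) with the group mean (line). CDKN2C fell to 13.0 and 13.5 CPM at 24 h of enzalutamide and rose to 34.4 and 34.9 CPM at 24 h of DHT, whereas CDKN1A and CDKN1B were highest at 4 h of enzalutamide and lowest at 24 h of DHT.

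CDKN1A (p21) and CDKN1B (p27), which restrain CDK2, rose early with enzalutamide and fell late with DHT. CDKN1A had 92.9 and 95.8 CPM in vehicle, 116.8 and 115.3 with enzalutamide for 4 h, 103.2 and 101.4 with it for 24 h, 88.8 and 88.5 with DHT for 4 h and 77.6 and 77.2 with it for 24 h. The 5 conditions did not overlap for this gene. With enzalutamide CDKN1A rose at 4 h by 0.30 in log2 fold change (SE 0.036, adjusted p = 0.000175, edgeR quasi-likelihood test with Benjamini-Hochberg adjustment over 15555 genes) and at 24 h by 0.12 (adjusted p = 0.0237), and it fell by 0.29 with DHT at 24 h (adjusted p = 2.61e-05). The 24 h rise with enzalutamide lost its call without either vehicle or either enzalutamide 24 h library (adjusted p 0.052 to 0.202), without either DHT 4 h library (0.0717 and 0.0718) and with DESeq2 (0.0996).

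CDKN1B had 95.7 and 94.0 CPM in vehicle, 114.0 and 114.5 with enzalutamide for 4 h, 99.4 and 102.4 with it for 24 h, 88.4 and 88.5 with DHT for 4 h and 77.1 and 77.2 with it for 24 h. Its levels followed the same order of conditions as those of CDKN1A. The log2 fold change was 0.27 at 4 h of enzalutamide (SE 0.0359, adjusted p = 0.000399) and -0.30 at 24 h of DHT (SE 0.0365, adjusted p = 1.66e-05). At 24 h of enzalutamide it was 0.09 and did not pass (adjusted p = 0.0733). With vehicle replicate 1 taken from set 3 alone (the sets are described below), it was 0.105 and passed (adjusted p = 0.0465, edgeR). CDKN1A was then 0.098 and did not pass (adjusted p = 0.0573).

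CDKN1C (p57), an imprinted inhibitor, was weakly expressed, with 49 to 116 counts per library. It had 1.92 and 2.23 CPM in vehicle and 0.915 and 1.25 CPM at 24 h of DHT, and these groups did not overlap. It fell by 0.95 with DHT at 24 h (SE 0.191, adjusted p = 0.00103). With enzalutamide its log2 fold change was -0.06 at either time (adjusted p = 0.853, then 0.826).

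At 24 h of DHT the INK4 inhibitors CDKN2C and CDKN2D rose while the CIP/KIP genes fell. At 24 h of enzalutamide CDKN2C and CDKN2D fell. Of the CIP/KIP genes only CDKN1A was called, upward, but its rise (0.12) was close to that of CDKN1B (0.09). CDKN2C (p18) had 25.1 and 26.1 CPM in vehicle, 24.7 and 24.8 with enzalutamide for 4 h, 13.5 and 13.0 with it for 24 h, 26.3 and 25.5 with DHT for 4 h and 34.9 and 34.4 with it for 24 h. Both 24 h groups were clear of all others, on opposite sides. CDKN2C fell by 0.95 with enzalutamide at 24 h (SE 0.0537, adjusted p = 1.87e-08), the largest change of any member with that ligand, and rose by 0.44 with DHT at 24 h (SE 0.0493, adjusted p = 8.11e-06).

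CDKN2D (p19), the other INK4 gene of the group, had 6.33 and 6.73 CPM in vehicle, 8.44 and 7.78 with enzalutamide for 4 h, 5.17 and 4.60 with it for 24 h, 6.34 and 6.65 with DHT for 4 h and 8.65 and 9.66 with it for 24 h. Its vehicle and DHT 4 h libraries overlapped, and the other conditions stood apart from these. It rose at 4 h of enzalutamide by 0.32 (SE 0.096, adjusted p = 0.0455), fell at 24 h by 0.41 (SE 0.101, adjusted p = 0.00683) and rose at 24 h of DHT by 0.49 (SE 0.0948, adjusted p = 0.00082). The 4 h rise was just inside the threshold. It lost its call without any 1 of the vehicle, enzalutamide or DHT 4 h libraries (adjusted p 0.0586 to 0.217) and with DESeq2 (0.142). The 24 h fall lost its call without enzalutamide 24 h replicate 2 (adjusted p = 0.0704).

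Among the D-type cyclins, enzalutamide moved CCND1 most at 4 h and CCND3 most at 24 h. CCND1, a well-known amplified oncogene in several cancers, had 372.0 and 370.4 CPM in vehicle, 261.6 and 262.9 with enzalutamide for 4 h, 348.8 and 345.9 with it for 24 h, 357.2 and 357.2 with DHT for 4 h and 389.7 and 392.6 with it for 24 h. The 4 h enzalutamide libraries were below all others. With enzalutamide CCND1 fell at 4 h by 0.50 (SE 0.0289, adjusted p = 3.54e-07) and at 24 h by 0.10 (SE 0.0287, adjusted p = 0.0207). The 24 h value lost its call without vehicle replicate 1 or either enzalutamide 24 h library (adjusted p 0.053 to 0.102). Its rise of 0.08 with DHT at 24 h (adjusted p = 0.0432) lost its call without either vehicle, either DHT 24 h, either DHT 4 h or either enzalutamide 24 h library (adjusted p 0.072 to 0.145), and library size alone in place of TMM gave 0.02 (adjusted p = 0.639).

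CCND3 had 45.9 and 49.7 CPM in vehicle, 43.3 and 41.9 with enzalutamide for 4 h, 34.7 and 33.4 with it for 24 h, 46.8 and 46.4 with DHT for 4 h and 61.5 and 64.6 with it for 24 h. It fell by 0.49 with enzalutamide at 24 h (SE 0.0517, adjusted p = 1.04e-05) and rose by 0.40 with DHT at 24 h (SE 0.0499, adjusted p = 1.96e-05). At 4 h of enzalutamide its log2 fold change was -0.16 (adjusted p = 0.0527), just outside the threshold, and it passed without vehicle replicate 1 (-0.23, adjusted p = 0.0383) or enzalutamide 4 h replicate 1 (-0.19, adjusted p = 0.0436).

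CDK4, the main D-cyclin kinase by level, had 153.8 and 155.6 CPM in vehicle, 149.3 and 151.9 with enzalutamide for 4 h, 136.3 and 134.2 with it for 24 h, 148.6 and 150.5 with DHT for 4 h and 188.5 and 189.1 with it for 24 h. The 24 h libraries of either ligand lay outside the range of the others. It fell by 0.19 with enzalutamide at 24 h (SE 0.0328, adjusted p = 0.000561) and rose by 0.29 with DHT at 24 h (SE 0.0326, adjusted p = 8.33e-06). Exons of TSPAN31 overlap those of CDK4 on the opposite strand, and the library kit was directional but the strand setting of the counting is not given in the sources used here. DINOL lies opposite CDKN1A, LTO1 opposite CCND1 and CCND2-AS1 opposite CCND2 in the same way.

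CDK6 was low, at 2.25 and 1.42 CPM in vehicle, 2.05 and 2.39 with enzalutamide for 4 h, 3.18 and 2.72 with it for 24 h, 2.60 and 2.56 with DHT for 4 h and 4.32 and 4.21 with it for 24 h. It was higher at 24 h with both ligands, by 0.64 with enzalutamide (SE 0.183, adjusted p = 0.0161) and by 1.18 with DHT (SE 0.177, adjusted p = 0.000106). The vehicle replicates differed more for CDK6 than for any other tested member. Without vehicle replicate 2 the enzalutamide value was 0.38 (adjusted p = 0.12), and without enzalutamide 24 h replicate 1 it was 0.52 (adjusted p = 0.129).

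**Figure D2:**
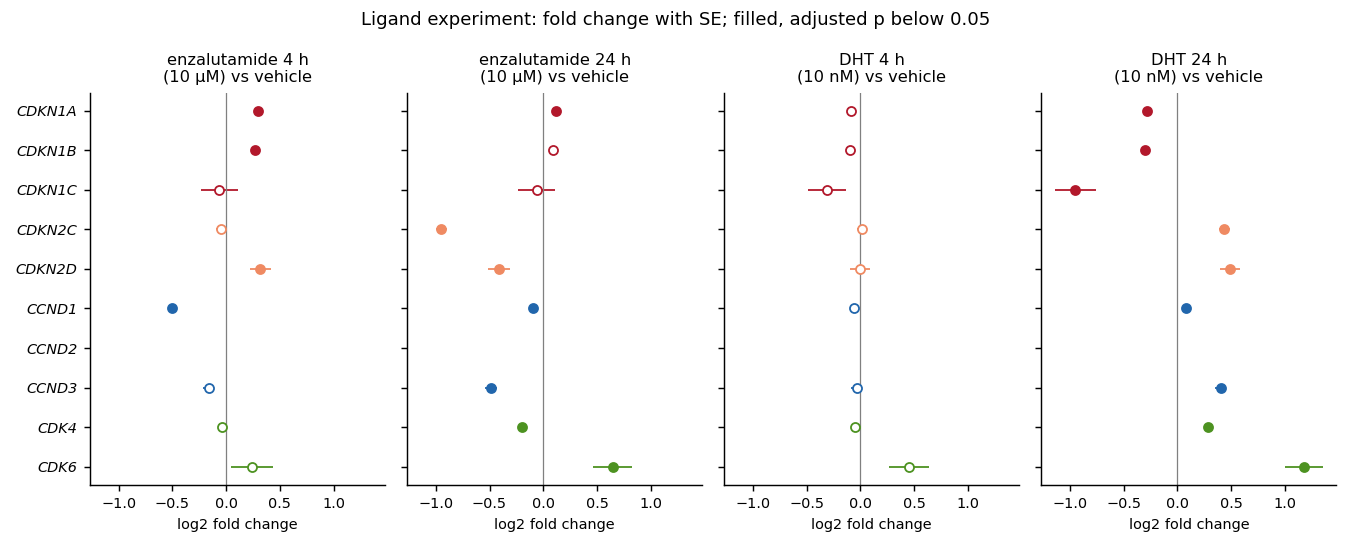
Log2 fold change against vehicle of the 9 tested members (horizontal axis, bars SE, n = 2 per condition) for enzalutamide and DHT at 4 h and 24 h, filled where the adjusted p was below 0.05. At 24 h, DHT moved all 9 members, with the CIP/KIP genes below 0 and the others above, while no member was called at 4 h of DHT. CCND1 was the weakest of the 24 h values, at 0.075. With library size alone in place of TMM it was 0.017 and was not called (adjusted p = 0.639, edgeR).

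Counted over the tested members, enzalutamide moved 3 up and 1 down at 4 h, where 6.94% of all tested genes were called up and 6.68% down. At 24 h it moved 2 up and 5 down (16.4% and 17.0% of all genes). The 7 calls became 4 without enzalutamide 24 h replicate 1 (CDKN1A, CDK6 and CCND1 were lost, which left 0 up) or without replicate 2 (CDKN1A, CDKN2D and CCND1 were lost). DHT at 4 h called 0 members (4.66% up and 2.11% down of all genes). At an unadjusted p below 0.05 there were 3, and DESeq2 called 0. Without vehicle replicate 1, CDK6 was called at 4 h of DHT (0.86, adjusted p = 0.0301), against 0.45 and an adjusted p of 0.199 with it. DHT at 24 h moved 6 up and 3 down (26.9% and 23.2% of all genes). The median log2 fold change of the members at 24 h was -0.10 with enzalutamide and 0.29 with DHT, against 0.01 and 0.00 over all tested genes. These comparisons share their vehicle libraries. The column names of the ligand libraries begin with ZC1, ZC2 or ZC3, called sets 1, 2 and 3 here. No source used here says what these prefixes mark. Compared with the vehicle column of the same set, both libraries kept the direction of all 20 of these calls. CCND1 at 24 h of DHT was then within 0.02 of 0.

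The direct comparison of the ligands does not use vehicle. Both DHT 4 h libraries were of set 1, both enzalutamide 4 h libraries of set 2 and both enzalutamide 24 h libraries of set 3. The DHT 24 h libraries were of sets 2 and 3. Set and condition therefore cannot be told apart between the ligands at 4 h or between the times of either ligand. At 24 h, DHT against enzalutamide gave 6 members higher and 3 lower (31.3% and 33.6% of all genes). CDKN2C differed most, by a log2 fold change of 1.38 (SE 0.0527, adjusted p = 7.12e-11), followed by CDKN2D at 0.90 (SE 0.0979, adjusted p = 2.9e-06), CCND3 at 0.89 (SE 0.0511, adjusted p = 5.03e-09) and CDK4 at 0.48 (SE 0.0327, adjusted p = 2.71e-08). The inhibitors CDKN1A (-0.40), CDKN1B (-0.39) and CDKN1C (-0.89) were lower with DHT (adjusted p = 4.89e-07, 6.79e-07 and 0.00111). CDK6 was higher by 0.53 (adjusted p = 0.0132), a call that was lost without enzalutamide 24 h replicate 2 (adjusted p = 0.0983) or DHT 24 h replicate 1 (0.0583). CCND1 was higher by 0.17 (adjusted p = 0.000151). At 4 h, 1 member was higher and 3 were lower (8.49% and 7.28% of all genes): CCND1 at 0.45 (adjusted p = 1.95e-07), and CDKN1A at -0.39, CDKN1B at -0.37 and CDKN2D at -0.32 (adjusted p = 5.88e-06, 9.39e-06 and 0.0374). The CDKN2D value lost its call without either DHT 4 h library or enzalutamide 4 h replicate 1 (adjusted p 0.118 to 0.215).

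From 4 h to 24 h of enzalutamide 1 member rose and 6 fell (11.7% and 12.9% of all genes). CCND1 came back up by 0.41 (SE 0.0289, adjusted p = 2.61e-07), while CDKN2C fell by 0.90 (SE 0.0541, adjusted p = 4.63e-08) and CDKN2D by 0.73 (SE 0.0991, adjusted p = 0.000148). CDKN1A and CDKN1B each fell back by 0.18 (adjusted p = 0.00249 and 0.00275). From 4 h to 24 h of DHT 6 members rose and 3 fell (26.3% and 23.5% of all genes), the same genes in each direction as against vehicle. The fall of CDKN1C between these times (by 0.64, adjusted p = 0.0148) was lost without DHT 4 h replicate 2 (0.108) or DHT 24 h replicate 1 (0.179).

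The other genes of the pathway were described by lists. Of 17 proliferation markers, all fell with enzalutamide at 24 h (median log2 fold change -1.16) and all rose with DHT at 24 h (median 0.82), with RRM2 and CDC6 among the 3 largest in both (-1.67 and -1.56, then 0.99 and 1.13). At 4 h, 1 rose and 5 fell with enzalutamide and 0 of the 17 were called with DHT. The summed level of the list was 2210 to 2260 CPM in vehicle, 938 to 970 at 24 h of enzalutamide and 3710 to 3750 at 24 h of DHT. CDKN2C, CDKN2D, CCND3 and CDK4 moved in the same direction as these genes at 24 h with either ligand. CCND1 did so as well, by -0.10 with enzalutamide and 0.08 with DHT, calls that did not hold in every setting. The part of cell cycle position in the members' values was not tested. Fewer cells in a phase and less RNA per cell cannot be told apart in bulk RNA.

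Of 13 RB family and E2F genes, 8 fell and 1 rose with enzalutamide at 24 h, led by E2F8 (-1.93), E2F7 (-1.66) and E2F2 (-1.61), and 8 rose and 2 fell with DHT. E2F7 and E2F8 are repressors that E2F activity itself induces. Of 10 genes of the cyclin E and cyclin A kinases, 7 fell with enzalutamide at 24 h, among them CCNA2 (-1.44), the phosphatase CDC25A (-1.09) and CDK2 (-1.04), and 8 rose with DHT. At 4 h of enzalutamide CCNE1 (-0.54, adjusted p = 0.000513) and CDC25A (-0.48, adjusted p = 5.75e-05) fell, as CCND1 did. Of 11 genes for the turnover of p27 and D cyclins, 5 fell with enzalutamide at 24 h and 7 rose and 1 fell with DHT. SKP2, the F-box protein that marks p27 for destruction, fell by 0.41 and rose by 0.67, and its cofactor CKS1B fell by 0.78 and rose by 0.57.

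CDKN1A is a classical target of p53. Of 25 other p53 pathway genes, 6 rose at 4 h of enzalutamide, led by SESN2 (1.03), GDF15 (0.77) and GADD45A (0.56). At 24 h 9 rose and 3 fell (median 0.09). With DHT at 24 h 3 rose and 13 fell (median -0.16), led by TP53INP1 (-0.99) and SESN1 (-0.87). Of 15 transcription factors known to act on CDK inhibitors or cyclin D, 5 rose and 1 fell at 4 h of enzalutamide. DDIT3 (1.35) and its activator ATF4 (0.55), both of the integrated stress response, rose most. CDKN2B, an INK4 gene outside the group, rose with enzalutamide, at 4 h by 0.71 (adjusted p = 0.0101) and at 24 h by 0.89 (adjusted p = 0.000635), and fell by 0.69 with DHT at 24 h (adjusted p = 0.00585), opposite to CDKN2C and CDKN2D at 24 h.

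**Figure D3:**
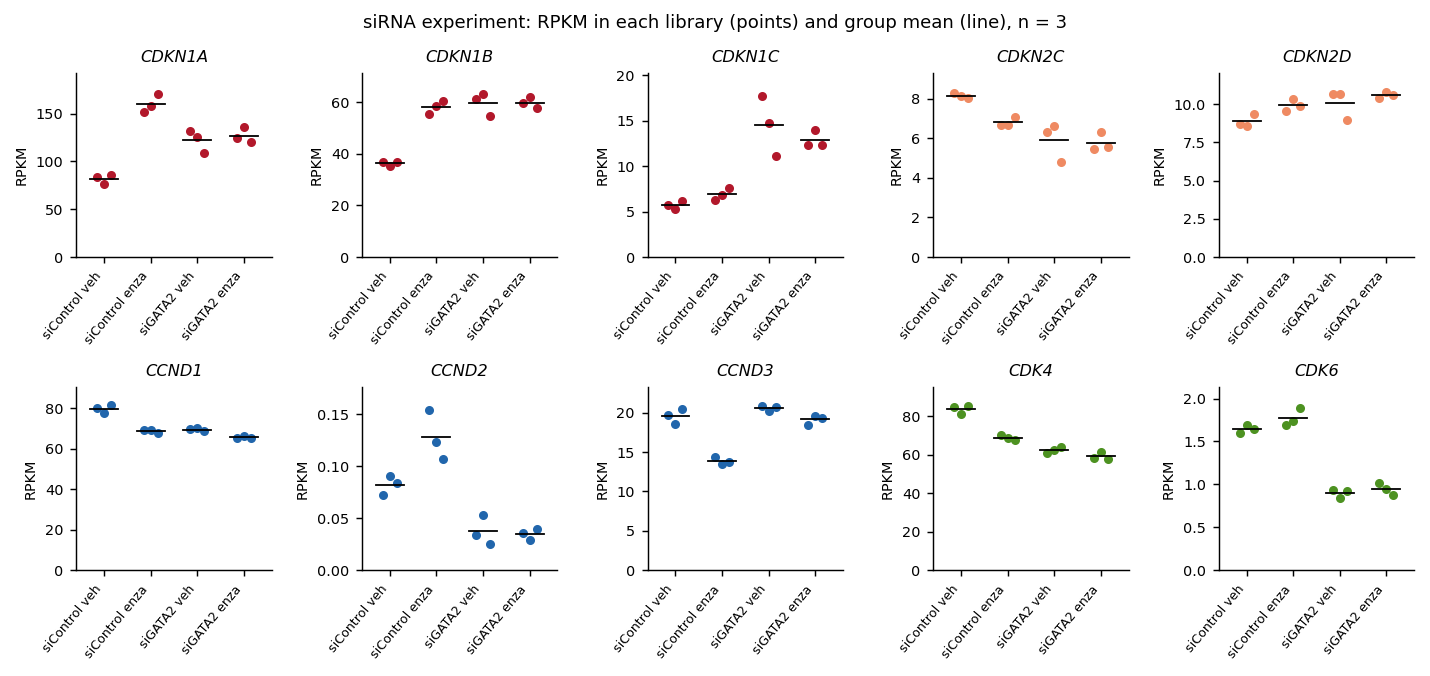
RPKM (vertical axes starting at 0) of the 10 genes in each siRNA library (points, n = 3 per condition) with the group mean (line). CDKN1A stood at 76.3 to 85.3 RPKM in siControl vehicle, 151.9 to 170.1 in siControl enzalutamide and 109.1 to 135.5 in the 6 siGATA2 libraries.

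In siControl cells, 25 µM enzalutamide raised CDKN1A and CDKN1B and lowered CCND1, CCND3 and CDK4. CDKN1A had 83.6, 76.3 and 85.3 RPKM in vehicle and 151.9, 157.8 and 170.1 RPKM in enzalutamide, without overlap. It rose by 0.97 on the log2(RPKM + 0.1) scale (SE 0.0763, adjusted p = 4.43e-06, limma over 20369 genes). CDKN1B went from 37.0, 35.5 and 36.7 RPKM to 55.3, 58.8 and 60.6 RPKM, a rise of 0.68 (SE 0.0542, adjusted p = 4.93e-06). The log2 difference of CDKN1C was 0.26 and did not pass (adjusted p = 0.181).

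The cyclin CCND3 had 19.8, 18.5 and 20.5 RPKM in vehicle and 14.4, 13.5 and 13.8 RPKM in enzalutamide, a fall of 0.49 (SE 0.04, adjusted p = 5.55e-06). CCND1 fell by 0.21 (SE 0.0224, adjusted p = 3.37e-05) and CDK4 by 0.28 (SE 0.0312, adjusted p = 4.5e-05), each without overlap of the groups. CCND2, at 0.0719 to 0.154 RPKM in these libraries, was called up by 0.32 (SE 0.0935, adjusted p = 0.018), and lost its call without siControl vehicle replicate 1 (0.0639) or siControl enzalutamide replicate 1 (0.0668). CDKN2C (-0.26, adjusted p = 0.0611), CDKN2D (0.16, adjusted p = 0.0671) and CDK6 (0.10, adjusted p = 0.28) did not pass. CDKN2C and CDKN2D lay just outside the threshold and passed without siGATA2 vehicle replicate 3 (adjusted p = 0.00275 and 0.00774), and CDKN2C also without siGATA2 vehicle replicate 2 (0.0429). Both passed as well when these conditions were fitted alone (adjusted p = 0.00187 and 0.0335) or with a filter at 1 RPKM (0.023 and 0.0333), and CDKN2D with each library centred on its median (0.0209). In all, 3 members rose and 3 fell (17.7% and 24.4% of all tested genes). The 10 µM and 25 µM treatments come from different experiments and were not compared.

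Silencing GATA2 in vehicle cells raised the same CIP/KIP genes and, with them, CDKN1C. CDKN1B reached 61.2, 63.4 and 54.5 RPKM, against 35.5 to 37.0 in siControl vehicle, a rise of 0.71 (SE 0.0542, adjusted p = 1.07e-06). CDKN1A reached 132.1, 125.7 and 109.1 RPKM, a rise of 0.58 (SE 0.0763, adjusted p = 7.29e-05). CDKN1C reached 17.8, 14.8 and 11.1 RPKM, against 5.24 to 6.18, the largest rise of the group at 1.31 (SE 0.145, adjusted p = 1.95e-05).

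Both kinases fell with siGATA2. CDK6 went from 1.60, 1.69 and 1.64 RPKM to 0.937, 0.846 and 0.926 RPKM, a fall of 0.80 (SE 0.0712, adjusted p = 3.64e-06). CDK4 went from 85.1, 81.3 and 85.5 RPKM to 60.8, 62.6 and 64.3 RPKM, a fall of 0.42 (SE 0.0312, adjusted p = 8.17e-07). CCND1 fell by 0.20 (SE 0.0224, adjusted p = 2.31e-05), CCND2 by 0.41 (SE 0.0935, adjusted p = 0.00334) and CDKN2C by 0.47 (SE 0.1, adjusted p = 0.00213).

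CDKN2D rose by 0.18 (adjusted p = 0.034) although its groups overlapped, and it lost its call without siControl vehicle replicate 1 or 2 or siGATA2 vehicle replicate 1 or 2 (adjusted p 0.0915 to 0.125). CCND3 did not pass (0.07, adjusted p = 0.142), but it was called without siControl vehicle replicate 3 (0.11, adjusted p = 0.0462) and with each library centred on its median (0.15, adjusted p = 0.00984). In all, 4 members rose and 5 fell (24.2% and 31.4% of all tested genes). The siGATA2 vehicle replicate 3 had the lowest level of 7 members in its group. Without it 9 members were again called, with values of 0.66 for CDKN1A, 0.77 for CDKN1B, 1.49 for CDKN1C and -0.33 for CDKN2C.

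**Figure D4:**
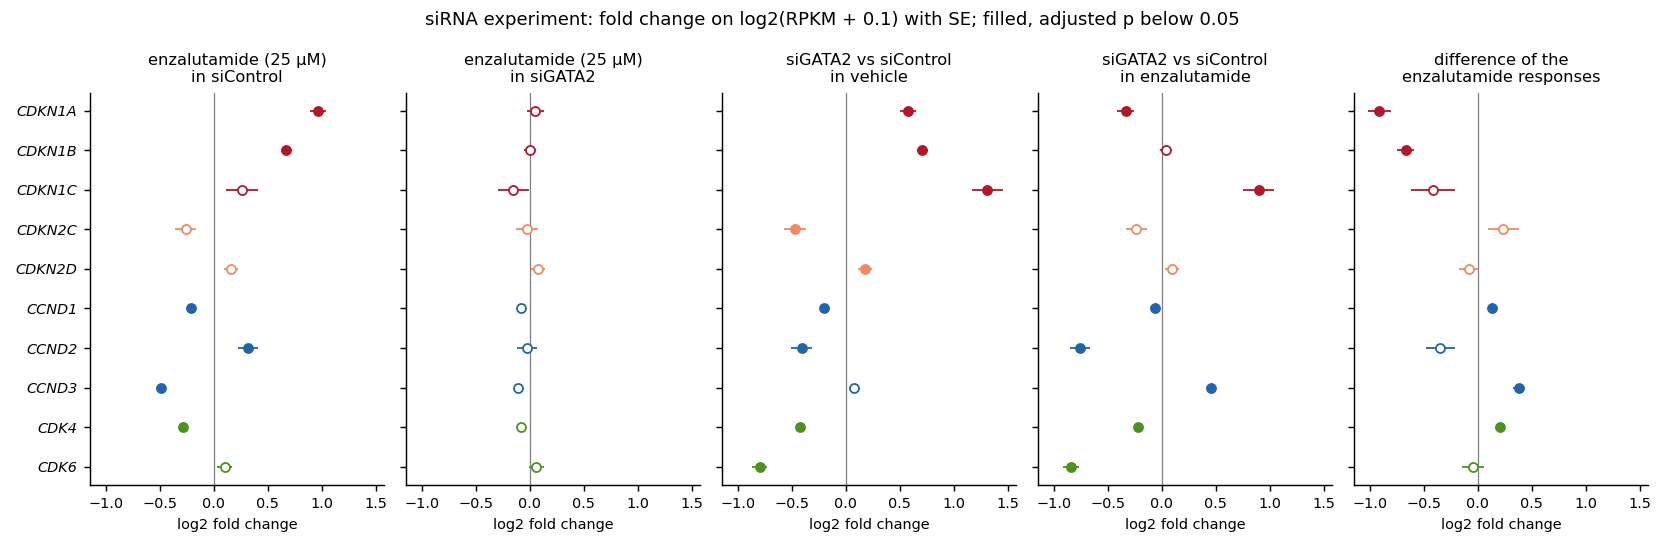
Log2 fold change on the log2(RPKM + 0.1) scale of the 10 members (horizontal axis, bars SE, n = 3 per condition) in 5 comparisons of the siRNA experiment, filled where the adjusted p was below 0.05. In siGATA2 cells 0 of 10 members were called for enzalutamide, and the last panel, the difference between the enzalutamide responses, has CDKN1A (-0.91) and CDKN1B (-0.67) on the left and CCND3 (0.38) on the right.

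In siGATA2 cells, enzalutamide called 0 of 10 members, where 0.221% of all tested genes were called up and 0.191% down (limma). At an unadjusted p below 0.05 there were 3. CDKN1A stood at 132.1, 125.7 and 109.1 RPKM in vehicle and 124.2, 135.5 and 120.6 RPKM in enzalutamide, overlapping groups with a log2 difference of 0.05 (adjusted p = 0.876). CDKN1B differed by 0.01 (adjusted p = 1) and CDKN1C by -0.15 (adjusted p = 0.781). CCND3 had 20.8, 20.2 and 20.8 RPKM in vehicle and 18.5, 19.6 and 19.3 RPKM in enzalutamide, groups that did not overlap, with a difference of -0.11 that did not pass (adjusted p = 0.373). CCND1 was the other member without overlap (-0.08, adjusted p = 0.21). The count was also 0 without siGATA2 vehicle replicate 3.

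The difference between the responses of siControl and siGATA2 cells was itself tested as an interaction. The rises of CDKN1A and CDKN1B were smaller in siGATA2 cells, with interactions of -0.91 (SE 0.108, adjusted p = 0.00022) and -0.67 (SE 0.0766, adjusted p = 0.000178) on the log2 scale. The falls of CCND3 (0.38, SE 0.0566, adjusted p = 0.000813), CDK4 (0.20, SE 0.0441, adjusted p = 0.00738) and CCND1 (0.13, SE 0.0317, adjusted p = 0.0125) were also smaller. In all, 3 members had a positive and 2 a negative interaction (15.0% and 10.8% of all tested genes). With each library centred on its median, the CCND1 value was 0.10 (adjusted p = 0.065). The interaction of CDKN1C was -0.41 (adjusted p = 0.175) and was called without siGATA2 vehicle replicate 3 (-0.59, adjusted p = 0.0133). That of CCND2 was -0.35 (adjusted p = 0.0828) and was called without the same library (adjusted p = 0.0464) or without siControl enzalutamide replicate 3 (0.0493).

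Under enzalutamide, siGATA2 cells had more CCND3 and CDKN1C and less CDKN1A and kinase message than siControl cells. CCND3 was higher, at 18.5, 19.6 and 19.3 RPKM against 14.4, 13.5 and 13.8 RPKM (0.46, SE 0.04, adjusted p = 3.1e-06), as was CDKN1C (0.90, SE 0.145, adjusted p = 0.000338). CDKN1A was lower (-0.34, SE 0.0763, adjusted p = 0.00326), the opposite of its direction in vehicle. CDK6 (-0.84, adjusted p = 2.44e-06), CDK4 (-0.22, adjusted p = 0.000122) and CCND2 (-0.75, adjusted p = 4.6e-05) were lower as in vehicle. CCND1 was lower as well (-0.07, adjusted p = 0.0275) and lost its call without siControl enzalutamide replicate 1 or 2 or siGATA2 enzalutamide replicate 1 or 3 (adjusted p 0.075 to 0.0872) and with each library centred on its median (-0.03, adjusted p = 0.38). In all, 2 members were higher and 5 lower (26.3% and 28.1% of all tested genes).

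CDKN1B (0.04, adjusted p = 0.583), CDKN2C (-0.24, adjusted p = 0.0702) and CDKN2D (0.10, adjusted p = 0.24) did not pass under enzalutamide. In the paired fit of these conditions alone, with the replicate number as a block, CDKN2C (adjusted p = 0.0335) and CDKN2D (adjusted p = 0.0334) also passed, for 9 members called in place of 7. Without the block, the fit of these conditions alone called CDKN2C (adjusted p = 0.0155) but not CDKN2D, and a filter at 1 RPKM also called CDKN2C (0.0295). CDKN2C was called as well without siGATA2 vehicle replicate 2 (0.0491) or 3 (0.00318) or siGATA2 enzalutamide replicate 2 (0.0424).

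Summed per unit of length, the 3 CIP/KIP genes were at 124 ± 5.96 RPKM in siControl vehicle, 225 ± 12.5 in siControl enzalutamide, 197 ± 19.2 in siGATA2 vehicle and 199.5 ± 10.7 in siGATA2 enzalutamide (SD, n = 3). The 3 D-type cyclins were at 99.4 ± 3.06, 82.8 ± 1.19, 90.2 ± 0.542 and 84.9 ± 1.17 RPKM in the same order. The ratio of these sums was 1.22 to 1.27 in siControl vehicle and at least 1.95 in every library of the other 3 conditions, up to 2.92 in siControl enzalutamide. It is a ratio of messages, not of proteins.

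The lists showed the same siRNA conditions from outside the group. All 17 proliferation markers fell with enzalutamide in siControl cells (median -1.30) and with siGATA2 in vehicle (median -0.86), and in siGATA2 cells enzalutamide called 1 of them, down. All 17 had a positive interaction (median 1.18), led by MCM4 (2.06), RRM2 (2.01) and CDC6 (1.87). Their summed level was 719 to 739 RPKM in siControl vehicle, 294 to 312 in siControl enzalutamide, 428 to 451 in siGATA2 vehicle and 380 to 395 in siGATA2 enzalutamide. CDKN1A and CDKN1B were high in the 3 conditions in which these markers were low, and the part of cell cycle position was not tested here either.

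Of the 25 p53 pathway genes, 18 rose and 3 fell with enzalutamide in siControl cells (median 0.32), led by GDF15 (1.41), BBC3 (1.08) and SESN2 (0.93). With siGATA2 in vehicle, where CDKN1A rose, 2 of the 25 rose and 18 fell (median -0.40), led by TP53I3 (-1.70), FAS (-1.60) and BTG2 (-1.47). The median of all tested genes was -0.02 and -0.03 in these comparisons. DDIT3 (2.25) and ATF4 (1.20) rose with enzalutamide in siControl cells, and their interactions were -2.06 and -1.06 (adjusted p = 1.59e-06 and 9.76e-07). SKP2 fell by 0.57 with enzalutamide and by 0.95 with siGATA2 (adjusted p = 3.46e-07 and 2.57e-09), in both cases together with CKS1B (-0.61 and -0.49). CDKN2B rose by 1.03 with enzalutamide and by 1.13 with siGATA2 in vehicle (adjusted p = 4.08e-06 and 6.15e-07).

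**Figure D5:**
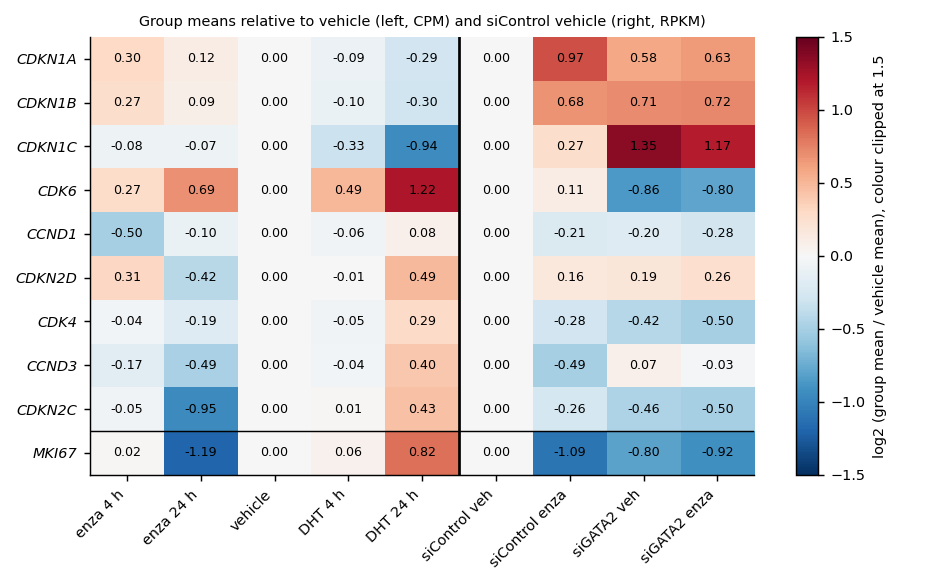
Log2 ratio of each group mean to vehicle (left, CPM) or siControl vehicle (right, RPKM) for 9 members and the proliferation marker MKI67, with the value in each cell and colour clipped at 1.5. CDKN2C and MKI67 fell together at 24 h of enzalutamide (-0.95 and -1.19) and rose together at 24 h of DHT (0.43 and 0.82), and CDKN1A and CDKN1B had the opposite sign in each of these columns.

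The gene most alike to each member was sought over 9 condition means (5 ligand and 4 siRNA, each centred within its experiment) among 11645 expressed genes. For CDKN1A it was PCBP2 (Pearson r = 0.995), for CDKN1B IRAK2 (0.974), for CDKN1C AES (0.991), for CDKN2C PSRC1 (0.995), for CDKN2D ZNF85 (0.973), for CCND1 LRFN1 (0.975), for CCND3 DCTPP1 (0.995), for CDK4 BCS1L (0.995) and for CDK6 EIF2AK4 (0.987). Within the group CDKN1A and CDKN1B were the most alike (0.916), followed by CDKN2C with CDK4 (0.815). These values describe 9 points that share their libraries.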

How the data were processed

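LNCaP RNA-seq libraries of a ligand and an siRNA experiment (24 samples, 9 conditions) were used. For the ligand experiment, the authors aligned reads with TopHat2 2.0 to hg19, per the labels, quantified genes in Partek and deposited estimated counts without normalization. No source used here names the annotation. The labels list 4 vehicle samples, but the deposited columns give 3 of them replicate number 1 in different sets. Against each other their chi-square averaged 1.53 to 1.56 over genes, where sampling noise gives about 1, and against the fourth column 3.59 to 3.76. They were summed and counted as 1 sample, so that n = 2. For the siRNA experiment the authors deposited RPKM values, from which the mapped reads were recovered approximately by the steps between low values of 258 single-exon genes. Columns left unused numbered 0.

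The tests on rounded counts used edgeR 4.0.16 under R 4.3.3 (quasi-likelihood test, TMM factors, filterByExpr, 10 libraries and 5 conditions in 1 model). Its CPM values are scaled by TMM. Values of log2(RPKM + 0.1) were tested with limma 3.58.1 (variance trend, 12 libraries) for genes above 0 in at least 3 libraries. This scale understates changes of low genes such as CCND2. A gene was called at a Benjamini-Hochberg adjusted p below 0.05 over all genes tested, with no fold threshold. Errors are SD of replicates or SE of the fit. The labels call the siRNA samples biological replicates, and no source says how cultures were separated. On simulated data with known changes, the test recovered 93% of 1.5-fold and 100% of 2-fold changes for enzalutamide at 4 h (15316 genes), and the same shares for enzalutamide in siControl cells (20369 genes). The changes were placed only in genes above a minimum level, which left out genes as low as CCND2. Changes below 1.5-fold, the size of many calls here, were not simulated, so these shares do not cover them.

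The members, the pathway lists and the rule for named genes (all members, at most the 3 largest called genes per list and comparison, and the gene most alike to each member) were chosen with earlier results of these data known. Alternatives were DESeq2 1.42.0, other scalings, filters and pseudocounts, fits of the compared conditions alone, a replicate block and leaving out each library. Taking vehicle replicate 1 from a single set, and the paired fit of siGATA2 against siControl under enzalutamide, were added after seeing the data. Libraries with the same number, as deviations from the group mean, correlated between -0.175 and 0.19 in the ligand and between -0.342 and 0.28 in the siRNA experiment. All 3 pairs exceeded 0.1 only between siControl and siGATA2 under enzalutamide (0.113, 0.241 and 0.148), for which the paired fit was added as an alternative. The values and calls given first for that comparison come from the unpaired fit of all 12 libraries. Figures were drawn with matplotlib 3.10.9.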

Additional observations from a re-analysis of the deposited data

Results flagged for a closer look

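Enzalutamide effects that differed between cell states, and levels that differed between the times of a ligand, are collected here with their log2 values. Each comes from a test of the difference itself. The enzalutamide response of siGATA2 cells differed from that of siControl cells by -0.91 for CDKN1A, -0.67 for CDKN1B, 0.13 for CCND1, 0.38 for CCND3 and 0.20 for CDK4 (limma interaction). The siGATA2 vehicle level from which that response started was already raised for CDKN1A and CDKN1B.

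The level at 24 h of enzalutamide differed from that at 4 h by -0.18 for CDKN1A, -0.18 for CDKN1B, -0.90 for CDKN2C, -0.73 for CDKN2D, 0.41 for CCND1, -0.32 for CCND3 and -0.16 for CDK4 (edgeR). CDKN2D was called up at 4 h and down at 24 h. The level at 24 h of DHT differed from that at 4 h by -0.20 for CDKN1A, -0.20 for CDKN1B, -0.64 for CDKN1C, 0.42 for CDKN2C, 0.49 for CDKN2D, 0.13 for CCND1, 0.43 for CCND3, 0.34 for CDK4 and 0.72 for CDK6. Neither ligand had a set in common between its times. With no vehicle of its own for each time, time in culture cannot be told apart from the ligand in these values.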

How the results depend on the processing

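Each value of a member was recomputed under every alternative. Of 1541 recomputed values of called members, 1466 kept direction and call, 75 kept direction and lost the call, and 0 changed sign. The lost calls fell on 13 results, whose losses when a library was left out are in the report. Other settings ended the calls of CDKN1A at 24 h of enzalutamide (DESeq2, RLE factors, no filter, vehicle sets 2 and 3), CDKN1C between the DHT times (DESeq2), CDKN2D at 4 h of enzalutamide (DESeq2, library size, the compared conditions alone, each vehicle set), CDKN2D between the ligands at 4 h (DESeq2, the conditions alone, set 2) and in siGATA2 vehicle (the conditions alone), CCND1 at 24 h of DHT (library size, either filter, the conditions alone, set 3), CCND1 under enzalutamide (a filter at 1 RPKM, median centring) and in the interaction (median centring), and CCND2 in siControl (pseudocount 0.01). Of values that had not passed, 31 passed under an alternative. The number of members called stayed within 1.5 times of that reported, except when libraries were left out for enzalutamide at 24 h (4 to 7 members) and DHT at 4 h (0 to 1). With the replicate number as a block, 3 members were called for enzalutamide at 4 h, 8 for DHT at 24 h, 8 for siGATA2 in vehicle and 6 under enzalutamide. The block ended the calls of CDKN2D at 4 h (also against DHT) and in siGATA2 vehicle, and of CCND1 at 24 h of DHT and under enzalutamide. DESeq2 was not run on RPKM values. With 2 libraries per condition, a lone library left in a condition was assumed to vary like the others.

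Signs changed only among values that did not pass. Leaving out libraries gave, for enzalutamide in siGATA2 cells, -0.0256 to 0.112 for CDKN1A, -0.0591 to 0.0497 for CDKN1B, -0.332 to 0.00402 for CDKN1C, -0.163 to 0.0612 for CDKN2C, -0.00561 to 0.118 for CDKN2D and -0.0881 to 0.0589 for CCND2. For CDKN1C it gave -0.189 to 0.0332 at 4 h and -0.189 to 0.0331 at 24 h of enzalutamide and -0.0807 to 0.0997 between the times. At 4 h of DHT it gave -0.0116 to 0.0447 for CDKN2C, -0.0479 to 0.0418 for CDKN2D and -0.0895 to 0.0272 for CCND3. It gave -0.0229 to 0.00952 for CDK4 between the ligands at 4 h, -0.0168 to 0.641 for CDK6 at 4 h of enzalutamide and -0.0903 to 0.00393 for the interaction of CDK6. Vehicle set 1 alone gave 0.0484 for CDKN1C at 4 h and 0.0544 at 24 h of enzalutamide. Between the times CDKN1C was -0.00565 with DESeq2, -0.0071 with RLE factors and -0.00035 with the compared conditions alone. At 4 h of DHT, CDKN2C was -0.00183 by library size, -0.000878 with vehicle set 1 and -0.0128 with set 2, and CDKN2D was 9.19e-05 with DESeq2, 0.000896 with RLE factors, 0.00119 without a filter, 0.0113 with every vehicle column, 0.000663 with the compared conditions alone and 0.037 with set 2. The causes were not tested.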

Other observations

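CDKN1A and CDKN1B, on different chromosomes, had nearly equal counts in the ligand experiment, with a ratio of their CPM values between 0.971 and 1.037 in all 10 libraries. In the 12 siRNA libraries, on the RPKM scale that also divides by gene length, the ratio was between 1.98 and 2.81.

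CDK6 was higher than vehicle at 24 h of both ligands, and in the siRNA experiment it was lower in all 6 siGATA2 libraries than in all 6 siControl libraries. Its highest siGATA2 value was 1.015 RPKM and its lowest siControl value 1.60 RPKM.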
